A study of Mus musculus with 4 samples.

Results

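The genes described here are those of glutathione chemistry and the antioxidant response: the glutathione transferases of the alpha, mu, pi, theta, omega and microsomal classes, the enzymes that make and recycle glutathione, the redoxins and peroxidases, the superoxide dismutases, catalase, the metallothioneins, and the transcription factor NRF2 (gene Nfe2l2) with its inhibitor Keap1. They are a list of 36 gene symbols, and a probe belonged to the list where the accession printed beside it mapped to a listed symbol. All 36 genes were on the array, with 49 probes, out of 18217 genes with a named probe.

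RNA came from cultured microvascular smooth muscle cells of male C57BL6 mice in which Rap1a, a small GTPase of the Ras family, is knocked out. One channel of every array held RNA of cells that had received an empty shuttle vector by virus, and the other held RNA of cells that had received a shuttle vector labelled RapCA, so both groups carried the knockout and both were transduced. The growth medium held 10% serum. Cells were transduced overnight without serum and then kept for 48 h in medium with 0.5% serum. The series' title sets knockout against rescue, and there are 4 biological replicates, each 1 two-channel array with both conditions on it. The age of the mice and how many animals or cultures stand behind the replicates are not given in the sources used here, so the p-values measure the spread between these 4 arrays. The vector RNA carried Cy5 and the RapCA RNA Cy3 on every array, so the dye and the condition cannot be told apart. A log2 ratio below 0 means a lower signal in the channel labelled RapCA, and values after ± are SD over n = 4 arrays.

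Glutathione is the main small thiol of the cell. Cystine enters through the exchanger whose light chain is Slc7a11, glutamate-cysteine ligase (Gclc and Gclm) makes the first and limiting step, glutathione synthetase (Gss) the second, and glutathione reductase (Gsr) returns the oxidised form. Transferases join glutathione to electrophiles, while peroxidases, peroxiredoxins and catalase remove peroxides. NRF2 is held back by KEAP1 and, when released, acts at antioxidant response elements (AREs) of many of these genes. Metallothioneins bind zinc and copper and are induced through metal response elements (MREs) by the factor MTF1. In vascular smooth muscle these systems are known for tempering the effects of NADPH oxidases.

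The regulatory stretches of 5 genes are shown because their genes span the directions found here: Gclm, Gsta3, Mt1 and Mt2 gave a lower signal in the channel labelled RapCA and Gstm5 a higher one. Each is the 250 bases before the annotated RefSeq start in build GRCm38.p6, on the plus strand. Capitals mark matches, on either strand, to an ARE core (TGACNNNGC) or an MRE core (TGCACNC or TGCGCNC). The stretches are Gclm at chr3:122245307-122245556, Gsta3 at chr1:21240335-21240584, Gstm5 at chr3:107895604-107895853, Mt1 at chr8:94178839-94179088 and Mt2 at chr8:94172368-94172617.
Gclm: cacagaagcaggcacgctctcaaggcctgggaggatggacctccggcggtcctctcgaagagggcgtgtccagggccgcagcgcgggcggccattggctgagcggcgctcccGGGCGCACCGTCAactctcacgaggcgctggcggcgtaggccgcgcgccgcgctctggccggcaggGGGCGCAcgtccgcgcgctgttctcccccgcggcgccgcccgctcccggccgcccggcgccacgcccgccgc
Gsta3: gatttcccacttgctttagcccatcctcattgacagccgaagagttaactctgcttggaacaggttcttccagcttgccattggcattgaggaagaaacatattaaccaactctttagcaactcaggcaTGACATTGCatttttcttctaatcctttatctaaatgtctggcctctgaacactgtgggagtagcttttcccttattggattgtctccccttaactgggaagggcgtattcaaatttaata
Gstm5: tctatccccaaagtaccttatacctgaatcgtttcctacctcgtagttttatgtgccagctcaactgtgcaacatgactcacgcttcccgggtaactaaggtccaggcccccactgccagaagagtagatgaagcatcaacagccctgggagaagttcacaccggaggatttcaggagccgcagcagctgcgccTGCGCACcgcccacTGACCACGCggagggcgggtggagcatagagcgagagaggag
Mt1: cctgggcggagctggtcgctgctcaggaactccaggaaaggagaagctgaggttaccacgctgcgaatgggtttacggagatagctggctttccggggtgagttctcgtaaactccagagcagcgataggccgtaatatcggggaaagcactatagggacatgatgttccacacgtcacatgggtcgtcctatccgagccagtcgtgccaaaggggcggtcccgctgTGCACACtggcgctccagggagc
Mt2: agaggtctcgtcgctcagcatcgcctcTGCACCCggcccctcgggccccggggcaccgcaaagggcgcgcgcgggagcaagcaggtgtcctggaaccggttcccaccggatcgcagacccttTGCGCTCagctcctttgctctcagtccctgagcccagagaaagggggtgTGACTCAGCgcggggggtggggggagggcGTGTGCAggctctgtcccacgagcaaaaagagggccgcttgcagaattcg
In the Gclm stretch the ARE core, at bases −134 to −126 from the start, overlapped an MRE core, and both are inside the first run of capitals. In the Mt2 stretch the ARE core, at bases −79 to −71, contained an AP-1 motif (TGANTCA), and the stretch also held 3 MRE cores.

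Promoters were listed for 29 of the 36 genes, 37 promoters in all, because some genes have several starts. Those of Gsta4, Gstt2, Gclc, Gsr, Hmox1, Prdx6 and Sod3 were not used. An ARE core lay within the 250 bases in 9 of the 29 genes and in 9 of their 37 promoters, against 3338 of 32851 promoters (10.2%) of all genes in the table. Of these 9 genes, 6 were lower in the RapCA channel (Gclm, Gsta3, Mgst1, Mt2, Sod1 and Txnrd1), Gstm5 was higher, and Nfe2l2 and Prdx1 did not pass. Of the other 20 genes with a promoter, 9 were lower, 6 were higher, 4 did not pass and 1 was not tested. Genes with and without an ARE core in this window thus held both directions. An MRE core was found in 8 of the 29 genes and 9 of the 37 promoters, against 21.4% of all promoters, and 5 of those genes were lower and 3 higher. The AP-1 motif was found in 5 genes, against 6.75% of all promoters. A match is a run of letters, not a binding site, and elements farther from the start or after it are outside this window.

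**Figure D1:**
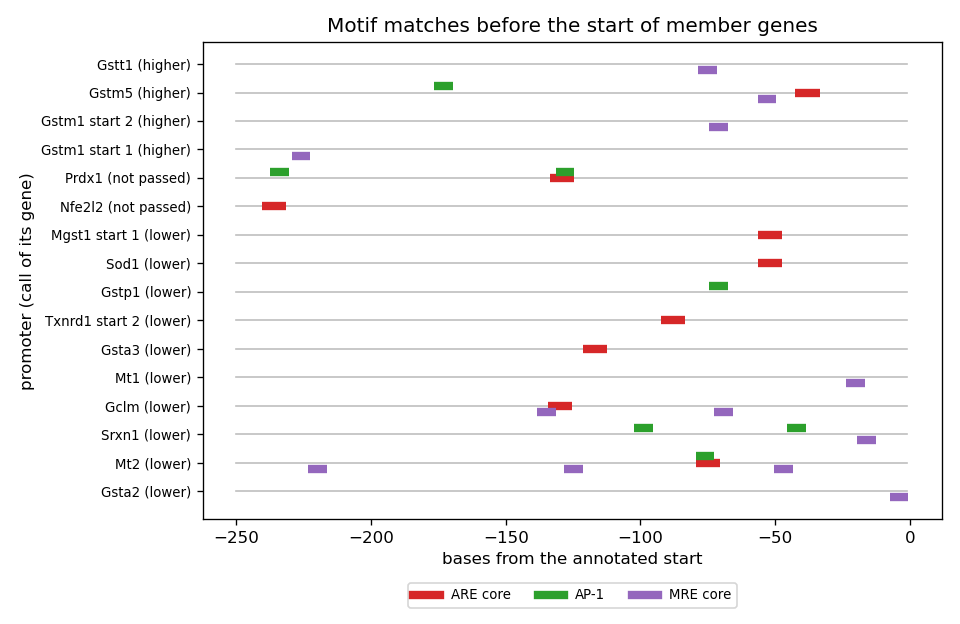
Matches to 3 motifs in the 250 bases before the annotated start of the member genes that hold any; the horizontal axis is the distance in bases from the start, each grey line is 1 promoter, coloured bars are matches, and the call of the gene stands in brackets. ARE cores lie before both lower genes, such as Gclm and Mt2, and a higher gene, Gstm5.

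The arrays held 41174 probes, of which 23497 had, in 1 channel or both, a signal well above background on every array and were tested with limma. In the vector channel 51.3% to 61.9% of probes were well above background and in the RapCA channel 57.7% to 62.9%, and no spot was saturated. Replicate 1 stood apart: the correlation of its ratios with each other array was 0.69 to 0.78 over 23485 probes, against 0.93 to 0.98 among replicates 2 to 4. Over the 35 tested members these ranges were 0.88 to 0.92 and 0.98 to 0.99. Rap1a itself was lower on all 4 arrays in the RapCA channel, at log2 ratios of −0.46, −1.02, −1.31 and −1.47 (mean −1.06 ± 0.44, adjusted p = 0.00204). The series' title sets knockout against rescue, but the labels do not say what RapCA stands for. In the vector channel, also of knockout cells, the Rap1a probe read 12.03 to 13.18 in log2 level and was well above background on all 4 arrays. Whether that probe lies in the deleted part is not known, so the channels are called by their labels throughout. The dye of each condition is taken from the labels and could not be checked, as no array had the dyes swapped. If the labels were reversed, every direction given here would be reversed too. Smooth muscle markers were present, with 8 of 10 above background on all arrays in both channels and Myocd and Des in neither. Of these 8, 4 were higher in the RapCA channel (Tagln 2.13, Mylk 1.55, Lmod1 1.25 and Acta2 0.54 in log2 ratio) and 4 did not pass, and their summed log2 level was 93.3 to 95.7 in the vector channel and 100.02 to 100.72 in the RapCA channel. These values are of each gene's brightest probe. Cald1 did not pass on that probe, but a dimmer one was higher at 1.08, and the dimmer Acta2 probes were at 0.56 and 1.23. Fibroblast markers moved too: 5 of 6 were above background and 4 of those 5 were higher in the channel labelled RapCA, with a median log2 ratio of 2.40 and a summed log2 level of 55.3 to 56.9 in the vector channel and 67.1 to 68.5 in the RapCA channel, and Lum was in neither channel. Of 5 pericyte markers 3 were tested: Notch3 (2.79) and Cspg4 (0.88) were higher and Kcnj8 (−0.40) lower, with a summed level of 25.3 to 27.0 against 28.7 to 29.6, and Rgs5 and Abcc9 were not well above background. Of 6 endothelial markers 3 were tested: Vwf (−2.03) and Kdr (−0.75) were lower and Tek (1.16) higher, with a summed level of 22.7 to 23.5 against 21.4 to 21.5, and Pecam1 and Cdh5 were not well above background on any array. Of 6 leukocyte markers with a probe 3 were tested: Cd14 and Csf1r did not pass and Lyz2 (0.52) was higher, with a summed level of 20.5 to 22.1 against 21.6 to 22.1, and Ptprc, Adgre1 and Itgam were not well above background on any array. Of 4 epithelial markers only Krt8 was tested, and it was lower (−1.04), with levels of 7.25 to 7.41 against 6.23 to 6.37. The RapCA channel of Krt8 and the vector channel of Lyz2 were not well above background on any array. On the mean of the 4 arrays, the Krt8 signal was thus at least 2.05-fold lower and that of Lyz2 at least 1.42-fold higher. The part of these marker shifts in the results below was not tested.

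Of the 35 tested genes, 20 had a lower signal in the channel labelled RapCA, 8 had a higher one, and 7 did not pass the limma test at an adjusted p of 0.05. Over all 12388 genes tested, 24.9% were lower and 28.9% higher, 53.9% in all, so the members' share of lower genes was above the background and their share of higher genes near it. The list was chosen with earlier results of these data known, so this comparison is a description and not a test. The median log2 ratio was −0.49 over the members and 0.02 over all genes. A fall of at least 2-fold was called for 12 members (7.47% of all genes) and a rise of at least 2-fold for 3 (9.16% of all genes). The levels of the channels did not overlap for 19 members that were lower (20.7% of all genes) and 8 that were higher (24.5%). By probe, 29 of 47 were lower (23.2% of all probes), 9 higher (26.4%) and 9 did not pass, where 49.6% of all probes were called. Gsta1, Gsta2, Gstt1 and Sod3 entered these counts through 1 channel, as the other was not well above background on every array. The filter and their direction are thus not independent. With both channels required, 18 members were lower and 6 higher, and 53.4% of 11427 genes were called. In bulk RNA, fewer cells that express a gene and less RNA per cell cannot be told apart.

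The shift was present on each array. Below 0 were 23, 22, 23 and 23 of the 35 genes on replicates 1 to 4, where 47.4% to 48.7% of all genes were below 0, and the members' median was between −0.56 and −0.41. The fall was not shared by all classes: it was found for every tested alpha class transferase and both metallothioneins, while the 3 mu class transferases of the list were higher. When each array was centred on its median in place of the loess curve, the median of all genes moved from 0.02 to −0.17, 38.4% of called genes were higher in place of 53.7%, and 4 members were higher and 19 lower.

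**Figure D2:**
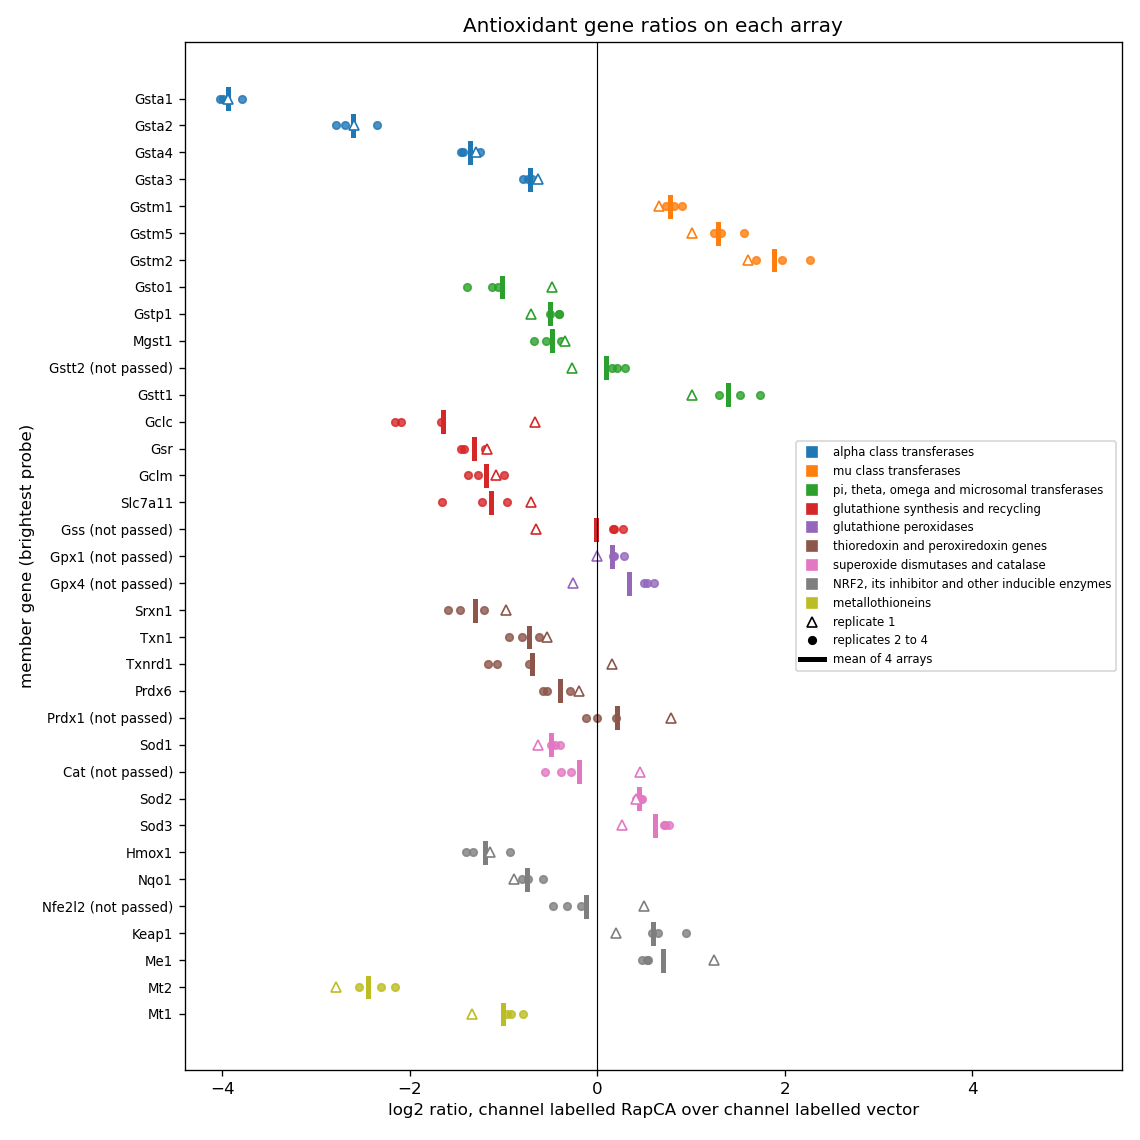
Log2 ratio of the RapCA-labelled to the vector-labelled channel for the brightest probe of each of the 35 tested members; points are single arrays (open triangles are replicate 1), bars are the mean of 4 arrays, and colours are the gene classes. Gsta1 and Gsta2 lie farthest left and Gstm2 farthest right, and replicate 1 lies apart from the other arrays for Gclc, Txnrd1, Gss and Cat.

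The alpha class transferases, enzymes that conjugate electrophiles and also reduce lipid peroxides, were lower in all 4 of 4 genes, with a median log2 ratio of −1.98. Of these, Gsta1 and Gsta2 passed the filter on dim probes through the vector channel alone. Gsta1 gave log2 levels of 10.44, 10.05, 10.50 and 10.48 in the vector channel and 6.50, 6.26, 6.48 and 6.49 in the RapCA channel. The channels were far apart on every array, and the RapCA channel was well above background on only 1 of 4. The ratio was −3.94 ± 0.10 (adjusted p = 4.37e-06), and −6.32 by the scanner software, so the size of the difference is uncertain.

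Gsta2, a close copy of Gsta1, gave 8.89, 8.54, 8.96 and 8.87 in the vector channel and 6.29, 6.19, 6.27 and 6.09 in the RapCA channel. All RapCA values were below all vector values and none was well above background, so the signal was at least 6.08-fold lower (adjusted p = 1.71e-05). The bound takes the higher of the probe's own signal and the lowest signal well above background on each array. Gsta4, known for conjugating the lipid peroxidation product 4-hydroxynonenal, had ratios of −1.29, −1.25, −1.45 and −1.43, a narrow range with no overlap between channels. Its mean was −1.36 ± 0.10 (adjusted p = 7.43e-05), and the scanner software's ratio was −2.14. Gsta3 had the smallest fall of the class, with ratios of −0.63, −0.79, −0.74 and −0.70 and a mean of −0.71 ± 0.07 (adjusted p = 8.96e-04), against −1.22 by the scanner software. A second Gsta3 probe was too dim to be tested. Whether these probes tell the alpha class copies apart was not tested. The starts of Gsta1 and Gsta2 lie on chromosome 9 and that of Gsta3 on chromosome 1.

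The mu class transferases of the list went the other way in 3 of 3 genes, with a median log2 ratio of 1.29. Of the mu class genes outside it, Gstm3 was higher, Gstm4 did not pass (0.31 ± 0.19, adjusted p = 0.0527), and Gstm6 and Gstm7 were too dim to be tested. Gstm2 gave 13.56, 13.33, 13.16 and 13.01 in the vector channel and 15.17, 15.03, 15.13 and 15.28 in the RapCA channel. Every RapCA value was above every vector value, and the ratio was 1.89 ± 0.30, a 3.70-fold higher signal (adjusted p = 7.10e-05). Gstm5 had ratios of 1.02, 1.24, 1.32 and 1.57, again without overlap, with a mean of 1.29 ± 0.23 (adjusted p = 1.89e-04). Of the probes of Gstm1, the brighter one gave 0.78 ± 0.11 (adjusted p = 7.25e-04) and the dimmer one 1.23 ± 0.17 (adjusted p = 1.50e-04). With median centring the brighter probe was at 0.19 and no longer passed, while the dimmer one, Gstm2 and Gstm5 still did, at 0.95, 1.41 and 0.99. These 3 genes lie together on chromosome 3, with annotated starts between the stretches that begin at 107895604 and end at 108018223 (GRCm38.p6). Whether the probes tell the mu class copies apart was not tested either.

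**Figure D3:**
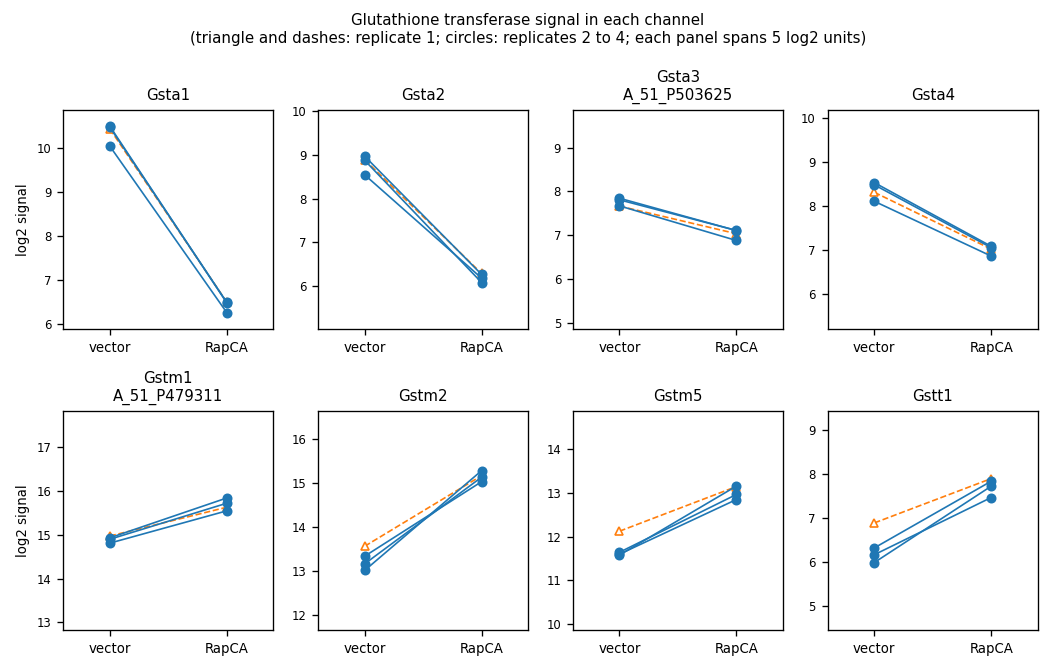
Log2 signal in the vector and RapCA channels for 8 transferase genes, with a line for each array (open triangle and dashes, replicate 1); every panel spans the same number of log2 units, so slopes can be compared. The 4 alpha class genes fall from vector to RapCA, with Gsta1 going from between 10.05 and 10.50 to between 6.26 and 6.50, and the 3 mu class genes and Gstt1 rise.

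The remaining transferases were mixed, with 3 of 5 lower, 1 higher and 1 that did not pass. Gsto1, the omega class enzyme that acts as a thioltransferase and reduces dehydroascorbate, had ratios of −0.48, −1.12, −1.39 and −1.06, and the channels did not overlap. Its mean was −1.01 ± 0.38 (adjusted p = 0.00164), and −1.79 with median centring. Gstp1, the pi class enzyme, had 2 probes, at −0.51 ± 0.14 and −0.46 ± 0.18 (adjusted p = 0.00573 and 0.0110). The first no longer passed with the scanner software's ratio, at −0.35, and was at −1.24 with median centring. Mgst1, a membrane-bound transferase with peroxidase activity, was at −0.49 ± 0.15 on the brighter probe (adjusted p = 0.00718) and −0.61 ± 0.12 on the other (adjusted p = 0.00228). The brighter one missed the threshold with median centring, at −0.61, and without replicate 3.

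The theta class gene Gstt1 gave 6.89, 6.17, 5.99 and 6.33 in the vector channel and 7.90, 7.47, 7.73 and 7.84 in the RapCA channel. All RapCA values were higher, and the vector channel was well above background on only 1 of 4 arrays. The ratio was 1.39 ± 0.31 (adjusted p = 2.50e-04), and 3.22 by the scanner software, so its size is uncertain too. Its relative Gstt2 had ratios of −0.27, 0.21, 0.30 and 0.15, with replicate 1 on the other side of 0, and did not pass (0.10 ± 0.25, 95% interval −0.19 to 0.39, adjusted p = 0.540). Without replicate 1 it passed at 0.22.

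Of the genes that supply, make and recycle glutathione, 4 of 5 were lower, with a median log2 ratio of −1.18. Gclc, the catalytic subunit of the limiting ligase, gave 11.93, 13.08, 13.23 and 13.32 in the vector channel and 11.27, 11.41, 11.14 and 11.16 in the RapCA channel. The RapCA values were close together and below every vector value, and the vector value of replicate 1 was the lowest of its channel. The ratio was −1.65 ± 0.69, a 3.13-fold lower signal (adjusted p = 0.00140), and −1.97 without replicate 1. Gclm, the modifier subunit of the same ligase, had ratios of −1.08, −0.99, −1.27 and −1.38. Its channels did not overlap, and the mean was −1.18 ± 0.18 (adjusted p = 1.90e-04).

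Gsr was measured by 3 probes that lay close to each other, at −1.31 ± 0.15, −1.07 ± 0.20 and −1.35 ± 0.10, all with adjusted p-values of 3.32e-04 or less. On each of them the channels did not overlap. The brightest gave 12.64, 12.56, 12.64 and 12.58 in the vector channel and 11.46, 11.36, 11.19 and 11.15 in the RapCA channel. Slc7a11 also had 3 probes, with a larger spread. The brightest had ratios of −0.71, −0.96, −1.22 and −1.65 without overlap of the channels (mean −1.14 ± 0.40, adjusted p = 0.00115). The other probes were at −1.01 ± 0.81 (adjusted p = 0.0206) and −0.80 ± 0.43 (adjusted p = 0.00645), and on both the channels overlapped. The first of these did not pass with median centring or in the fit with no replicate block.

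Gss was the exception in this class. Its ratios were −0.65, 0.17, 0.28 and 0.18, so replicate 1 was negative and the other 3 arrays positive, and the mean of −0.01 ± 0.43 did not pass (95% interval −0.40 to 0.39, adjusted p = 0.974). Without replicate 1 the ratio turned to 0.21 and passed (adjusted p = 0.0393), and with array quality weights it was also 0.21.

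Of the thioredoxin and peroxiredoxin genes, 4 of 5 were lower, with a median log2 ratio of −0.70. Srxn1, the sulfiredoxin that repairs overoxidised peroxiredoxins, had 3 probes, at −1.31 ± 0.28, −1.62 ± 0.32 and −1.65 ± 0.28, with adjusted p-values from 1.03e-04 to 2.53e-04. The brightest gave 14.67, 14.85, 15.11 and 15.04 in the vector channel and 13.70, 13.64, 13.51 and 13.57 in the RapCA channel. Each RapCA value was below each vector value on all 3 probes. Txn1, cytosolic thioredoxin, had ratios of −0.54, −0.62, −0.80 and −0.94 and a mean of −0.72 ± 0.18 (adjusted p = 0.00159), or −1.30 with median centring.

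Txnrd1, the reductase of thioredoxin, rested on replicates 2 to 4. Its ratios were 0.16, −0.72, −1.17 and −1.07, with the channels overlapping through replicate 1, and the mean was −0.70 ± 0.60 (adjusted p = 0.0313). It did not pass with median centring, with no filter on dim probes, in the fit with no replicate block or without replicate 2, 3 or 4, and it was at −0.99 without replicate 1. Prdx6, a peroxiredoxin that uses glutathione, was at −0.40 ± 0.19 (adjusted p = 0.0203), −0.66 ± 0.15 (adjusted p = 0.00192) and 0.04 ± 0.11 (adjusted p = 0.740) on its 3 probes. The last is the dimmest probe, at 6.92 to 7.13 in either channel. The first, which is the brightest, was at −0.98 with median centring and did not pass with the scanner software's ratio or without replicate 2, 3 or 4. Prdx1 had ratios of 0.79, 0.20, −0.12 and −0.01, on both sides of 0, and did not pass (0.22 ± 0.40, adjusted p = 0.301). Without replicate 1 it was the only tested member that did not pass, at 0.03 (adjusted p = 0.814).

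The glutathione peroxidases Gpx1 and Gpx4 did not pass, and Gpx3, the secreted form, was not well above background on any array in either channel. Gpx1 was among the brighter probes, at 15.87, 15.69, 15.64 and 15.62 in the vector channel and 15.87, 15.86, 15.82 and 15.90 in the RapCA channel. The channels overlapped and the ratio was 0.16 ± 0.12 (95% interval −0.08 to 0.39, adjusted p = 0.231), which did not pass. Its direction rested on the setting: with median centring it passed as lower, at −0.49 (adjusted p = 0.0349), and it passed as higher without replicate 1, at 0.21 (adjusted p = 0.0386), and with array quality weights, at 0.18, with adjusted p-values from 0.0191 to 0.496 over its alternatives. Gpx4, the enzyme that reduces lipid hydroperoxides in membranes, had ratios of −0.26, 0.50, 0.61 and 0.53. Replicate 1 had the opposite sign to the other 3 arrays, and the mean was 0.34 ± 0.41 (adjusted p = 0.116). It was 0.55 without replicate 1, where it passed (adjusted p = 6.59e-04), and turned to −0.39 with median centring.

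The superoxide dismutases moved in different directions. Cytosolic Sod1 had ratios of −0.64, −0.49, −0.45 and −0.39, all below 0 and without overlap of the channels (−0.49 ± 0.10, adjusted p = 0.00529). It was at −1.22 with median centring and did not pass with the scanner software's ratio, at −0.31. Mitochondrial Sod2 had ratios of 0.41, 0.47, 0.48 and 0.41, the smallest spread among the members (0.44 ± 0.04, adjusted p = 0.00659), but it turned to −0.08 with median centring. Without replicate 2 or 3 it did not pass. Extracellular Sod3 had ratios of 0.26, 0.77, 0.71 and 0.73 (0.62 ± 0.24, adjusted p = 0.00480). Its vector channel was not well above background on any array, so the signal was at least 1.53-fold higher in the channel labelled RapCA. Catalase (Cat) had ratios of 0.46, −0.38, −0.56 and −0.28 with replicate 1 on the other side of 0 and did not pass (−0.19 ± 0.45, adjusted p = 0.391). It passed without replicate 1, at −0.41 (adjusted p = 0.00463).

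Nfe2l2 RNA, which encodes NRF2, did not pass on either of its probes. The brighter gave 12.32, 13.20, 13.43 and 13.38 in the vector channel and 12.82, 13.03, 13.10 and 12.91 in the RapCA channel, so the channels overlapped and replicate 1 was reversed against the rest. The ratios were −0.12 ± 0.43 (95% interval −0.51 to 0.27, adjusted p = 0.586) and −0.20 ± 0.45 (adjusted p = 0.376). Without replicate 1 both passed, at −0.32 and −0.42 (adjusted p = 0.0136 and 0.00437). Keap1 had ratios of 0.20, 0.58, 0.65 and 0.94, all above 0 and without overlap of the channels. Its mean was 0.59 ± 0.31 (adjusted p = 0.00941), but 0.17 with median centring, where it did not pass. NRF2 is regulated mainly through its protein's stability, which these arrays do not measure.

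Among the inducible enzymes, Hmox1, which breaks down haem, gave 14.73, 14.62, 14.95 and 15.06 in the vector channel and 13.59, 13.69, 13.56 and 13.74 in the RapCA channel. The RapCA channel was lower on every array, by a ratio of −1.20 ± 0.21 (adjusted p = 2.18e-04). Nqo1, a quinone reductase, had ratios of −0.89, −0.58, −0.81 and −0.74, again without overlap (−0.75 ± 0.13, adjusted p = 9.75e-04). Me1, the cytosolic malic enzyme that makes NADPH, went the other way, with ratios of 1.25, 0.54, 0.47 and 0.53. All 4 were above 0 and replicate 1 was the highest (0.70 ± 0.37, adjusted p = 0.00746). With median centring it was at 0.46 and did not pass.

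Both metallothioneins were lower. Mt2 gave 16.63, 16.04, 16.21 and 16.16 in the vector channel and 13.84, 13.73, 13.67 and 14.00 in the RapCA channel. Every RapCA value was more than 2 log2 units below its vector value, and the ratio was −2.45 ± 0.28, a 5.45-fold lower signal (adjusted p = 2.75e-05). Mt1 gave 16.13, 15.65, 15.71 and 15.75 in the vector channel and 14.79, 14.73, 14.74 and 14.95 in the RapCA channel, also without overlap. Its ratio was −1.004 ± 0.24 (adjusted p = 5.57e-04), and −1.60 with median centring. The stretches printed above are neighbours on chromosome 8, that of Mt2 with 3 MRE cores and that of Mt1 with 1. These counts depend on the annotated start and do not cover the bases after it, so they are not the genes' full numbers of MREs. No test of the difference between these genes was made, since they are read by different probes.

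**Figure D4:**
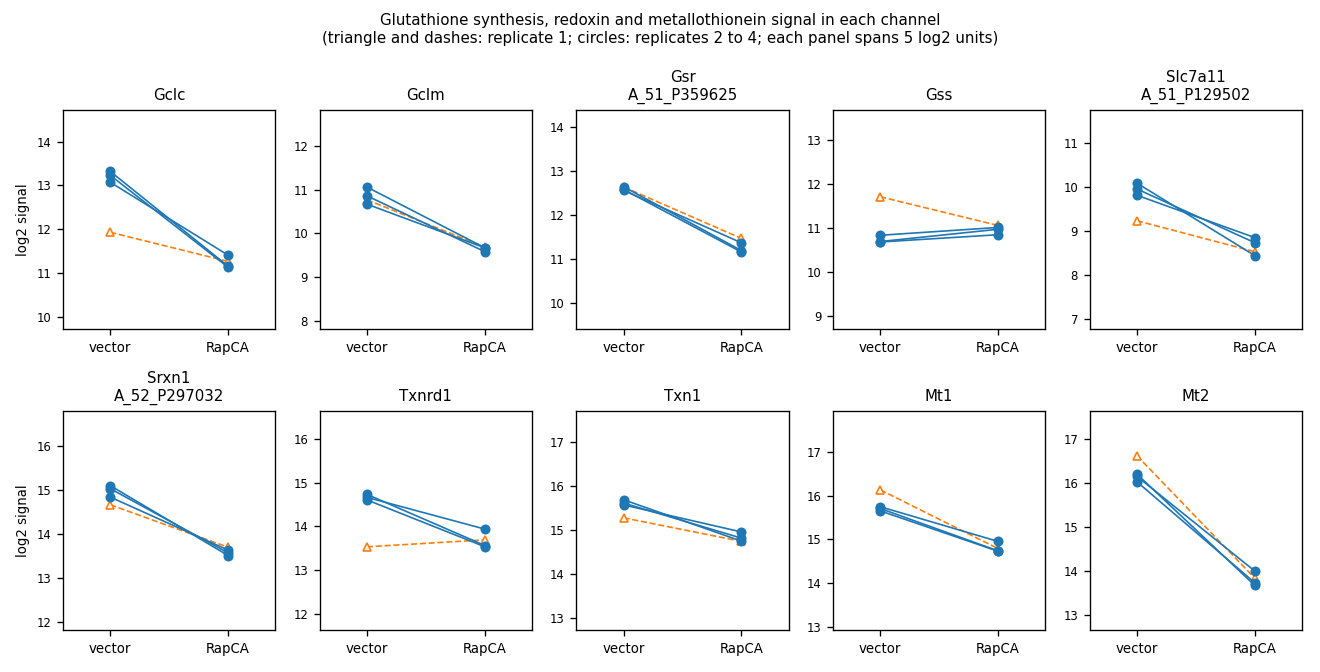
Log2 signal in the vector and RapCA channels for 10 genes of glutathione synthesis, the redoxins and the metallothioneins, with a line for each array (open triangle and dashes, replicate 1); every panel spans the same number of log2 units. All lines of Gclm, Gsr, Srxn1, Mt1 and Mt2 fall, while the line of replicate 1 differs from the others in Gss and Txnrd1.

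The spread between arrays was larger in the vector channel than in the RapCA channel for 29 of the 35 members (82.9%), with median SDs of 0.20 and 0.10 log2 units. Over all genes tested the share was 83.9%, so the members did not stand apart in this. Of the 28 called members, 19 passed in the same direction under 14 alternatives. The alternative left out of that count tested only probes with both channels above background. It kept the call of 24 of the 28 and did not test the brightest probes of Gsta1, Gsta2, Gstt1 and Sod3, which are among the 19. Those 19 were 15 lower and 4 higher, and the other 9 were Gstm1, Gstp1, Keap1, Me1, Mgst1, Prdx6, Sod1, Sod2 and Txnrd1.

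**Figure D5:**
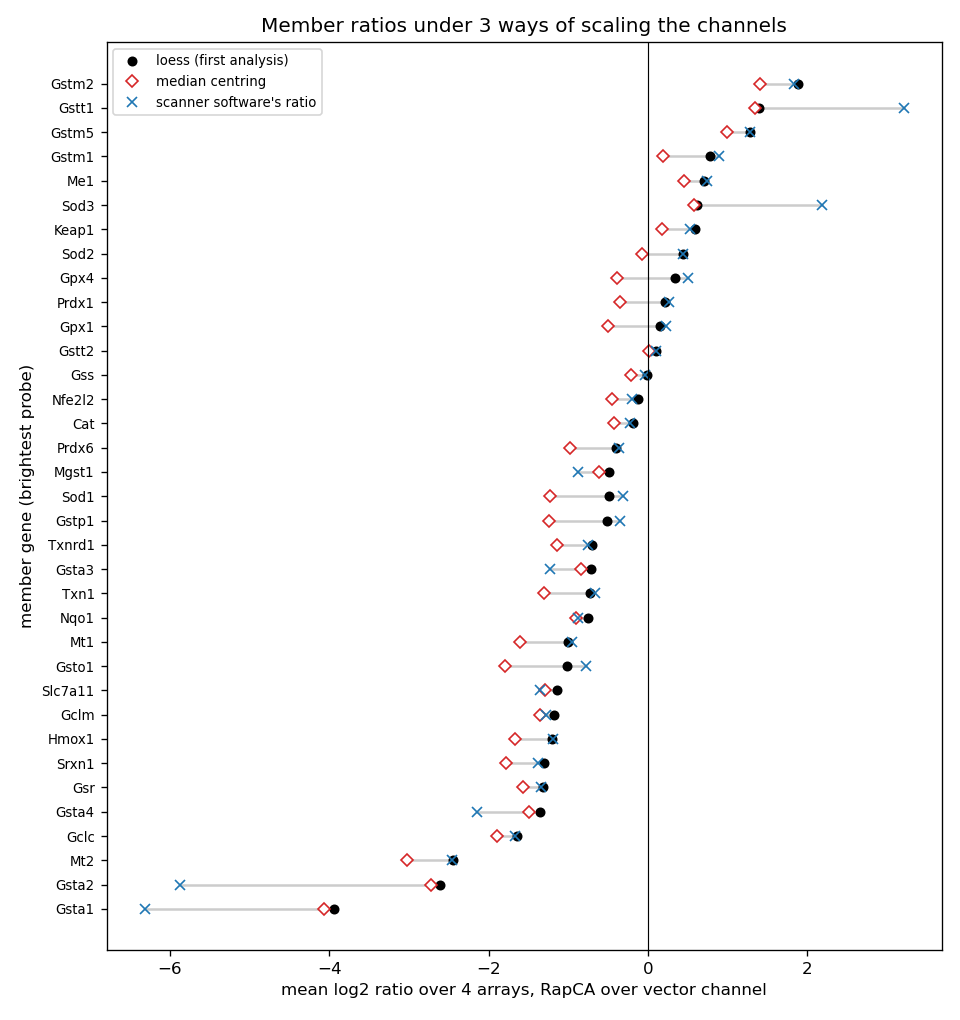
Mean log2 ratio over 4 arrays for each of the 35 tested members under loess, median centring and the scanner software's own ratio. Median centring moves nearly every gene to the left and Sod2, Gpx1, Gpx4 and Prdx1 across 0, and the scanner software's ratio moves the dim genes Gsta1, Gsta2, Gstt1 and Sod3 away from 0.

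A further 100 genes of the same pathways were listed for comparison, of which 86 were tested. Of these, 29 were higher, 24 lower and 33 did not pass, with a median log2 ratio of 0.05. Pooled, their shares were near those of all genes (28.9% and 24.9%), unlike the members' share of lower genes. The single lists differed: 7 of 15 other NRF2 target genes were lower, but only 2 of 19 other peroxidases and redoxins. No test of the difference between these lists was made, and members and lists were chosen with earlier results of these data known. With median centring 11 of these further genes were higher and 21 lower.

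The other glutathione transferases were split, with 3 of 8 higher, 3 lower and 2 that did not pass. Gsto2, the second omega class gene, was lower as Gsto1 was, at −1.77 ± 0.32 (adjusted p = 1.01e-04). The microsomal Mgst2 was lower at −0.78 ± 0.10 (adjusted p = 6.77e-04). The mu class Gstm3 was higher at 0.77 ± 0.16 (adjusted p = 0.00105), although it did not pass with median centring, at 0.25. Of the other peroxidases and redoxins, 7 of 19 were higher, 2 lower and 10 did not pass. Txnip, which binds and inhibits thioredoxin, was higher at 1.75 ± 0.21 (adjusted p = 5.48e-05), as were the reductase Txnrd3 at 1.23 ± 0.10 (adjusted p = 1.05e-04) and the methionine sulfoxide reductase Msrb3 at 1.17 ± 0.15 (adjusted p = 1.68e-04). Msra, which reduces the other form of methionine sulfoxide, was lower at −0.73 ± 0.29 (adjusted p = 0.00346). Mitochondrial Txn2 was lower at −0.43 ± 0.19 (adjusted p = 0.0159), and did not pass without replicate 2 or 3.

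Of the genes of glutathione supply, breakdown and export, 6 of 14 were higher, 4 lower and 4 did not pass. The gamma-glutamyl transferase family members Ggt5 and Ggt7, of the family that starts the breakdown of extracellular glutathione, were higher at 2.17 ± 0.44 (adjusted p = 1.03e-04) and 1.64 ± 0.31 (adjusted p = 1.24e-04). Ggct and Chac1, enzymes of glutathione breakdown inside the cell, were lower at −1.34 ± 0.11 (adjusted p = 7.94e-05) and −0.94 ± 0.26 (adjusted p = 8.87e-04). In none of these 4 genes did the channels overlap, but they were named for their small p-values. Of all genes, 20.7% were lower and 24.5% higher without overlap.

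Of the regulators and partners of NRF2, 4 of 11 were higher, 3 lower and 4 did not pass. Nfe2l1, the related factor NRF1, was higher at 1.11 ± 0.19 (adjusted p = 2.68e-04), and Btrc, a ubiquitin ligase adaptor for NRF2, at 0.59 ± 0.08 (adjusted p = 0.00213). Neither passed with median centring, at 0.67 and 0.47. Sqstm1, the autophagy receptor that binds KEAP1, was lower at −1.10 ± 0.18 (adjusted p = 2.70e-04), with ratios of −0.99, −1.13, −1.35 and −0.93. The small Maf protein gene Maff was lower at −0.56 ± 0.39 (adjusted p = 0.0210), but did not pass in the fit with no replicate block or without replicate 3.

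Of 15 other NRF2 target genes, 5 were higher, 7 lower and 3 did not pass. Fth1, the heavy chain of ferritin, was lower with ratios of −1.34, −1.78, −1.92 and −1.81 (−1.71 ± 0.26, adjusted p = 7.60e-05). Idh1, a cytosolic source of NADPH, was higher with ratios of 1.58, 1.50, 1.58 and 1.57 (1.56 ± 0.04, adjusted p = 4.20e-05). Ephx1, microsomal epoxide hydrolase, was higher at 1.23 ± 0.27 (adjusted p = 3.09e-04). Both directions were thus found among the target genes as well as among the members.

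Metal handling genes gave 2 higher, 4 lower and 6 that did not pass, of 12. The zinc importer Slc39a14 was higher at 0.63 ± 0.18 (adjusted p = 0.00283) and Ccs, the copper chaperone of SOD1, at 0.62 ± 0.28 (adjusted p = 0.00687). The copper importer Slc31a1 was lower at −0.49 ± 0.10 (adjusted p = 0.00522) and the iron exporter Slc40a1 at −0.68 ± 0.31 (adjusted p = 0.00536). None of these 4 passed with median centring. With loess, dimmer probes of Slc39a14 (0.06 ± 0.33, adjusted p = 0.745) and Slc31a1 (0.22 ± 0.57, adjusted p = 0.413) did not pass. A dimmer probe of Ccs was higher (1.01 ± 0.39, adjusted p = 0.00186). Among oxidant sources 7 of 12 were tested, with 2 higher, 1 lower and 4 that did not pass. Xdh, xanthine dehydrogenase, was lower at −1.29 ± 0.12 (adjusted p = 9.86e-05). Cyba, the p22phox subunit of NADPH oxidases, was higher at 0.85 ± 0.52 (adjusted p = 0.00886), with overlapping channels and a ratio of 0.10 on replicate 1. Nos3 was at 0.34 ± 0.10 (adjusted p = 0.0244), with a vector channel that was not well above background. On the mean of the 4 arrays its signal was thus at least 1.27-fold higher. Nos3 did not pass with median centring or without replicate 2, 3 or 4.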

How the data were processed

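RNA of both conditions was hybridised together on each of 4 two-channel Agilent arrays of 1 slide, with Cy5 for the vector and Cy3 for RapCA, per the labels. The scanner software was Agilent Feature Extraction (10.7.3.1 in the file headers, 10.9 in the submitters' processing notes), and the file headers name build mm9. The deposited scanner files give median spot and background intensity without normalization, and a log10 ratio of red over green that the scanner software corrected for background and dye, per the file headers. The authors' deposited series table holds the same log10 ratio, with medians of 0 and no difference above 5e-05 over 40929 probes.

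From the intensities, background was corrected with normexp (offset 50), loess was fitted within arrays with control spots at weight 0, 94 to 137 outlier spots per array were dropped, and replicate spots of a probe were averaged. A probe was kept if 1 channel or both exceeded background clearly on every array and if at least 3 arrays measured it. Ratios are log2 of RapCA over vector, and channel levels are log2 after loess and Aquantile. The mean was tested against 0 with limma 3.58.1 (lmFit, eBayes) in R 4.3.3, with Benjamini-Hochberg adjustment over 23497 probes. The array pairs the channels, so the array is the block. Intervals are 95%, from limma. Only 4 arrays limit the precision, and the median SD of a tested probe over arrays was 0.25. Steps were tested on simulated data.

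Probes were named through RefSeq accessions, which named 64.8% of probes, and a gene is its brightest tested probe. All members were named, every probe. Of each further pathway list, the 3 called genes with the smallest p were named, with up to 2 called in the direction opposite to the list's majority. The members and lists were chosen with earlier results of these data known. Promoters are from RefSeq, GRCm38.p6, matched by symbol. Alternatives covered the background offset, centring, ratio source, filter, outliers, variance model, array weights, block, probe rule and left-out replicates.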

Additional observations from a re-analysis of the deposited data

Results flagged for a closer look

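Of 73 probe values checked, 7 had 1 array far from the other 3, and chance alone flags about 1 in 20 such groups of 4. In 5 of the 7 the array was replicate 1. For Sod3 it gave a log2 ratio of 0.26 where the others were at 0.71 to 0.77. For Gpx4 it gave −0.26 against 0.50 to 0.61, and for Gss −0.65 against 0.17 to 0.28, with opposite signs in both genes. For Me1 it gave 1.25 against 0.47 to 0.54, and for Msra −1.17 against −0.65 to −0.55. Replicate 4 stood apart for Btrc, at 0.71 against 0.54 to 0.56. Replicate 2 stood apart for Idh1, at 1.50 against 1.57 to 1.58, a gap of under 0.1 log2 units.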

How the results depend on the processing

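Only 4 arrays of 1 slide, without a dye swap, stand behind these values, and dim probes near background have uncertain sizes. Over the named probes and all alternatives, 954 values kept direction and side of the threshold, 44 lost the threshold, 12 gained it and 7 turned sign. With median centring, 6546 probes were called in place of 11656 (2624 higher in place of 6210), 4 member genes and 5 member probes were higher in place of 8 and 9, and 32 other pathway genes were called in place of 53 (11 higher in place of 29). The members' median was then −0.91 in place of −0.49, and the signs of Sod2 (−0.079), Prdx1 (−0.36), Gpx4 (−0.39), Gpx1 (−0.49) and 1 Prdx6 probe (−0.062) turned. The median was −0.36 with the scanner software's ratio and with the series table. With array quality weights 17637 probes were called, 8605 of them lower in place of 5446, and Gss turned to 0.21, and leaving out 1 replicate moved it between −0.10 and 0.21. The causes were not tested. Leaving out 1 replicate gave 7907 to 15738 called probes (4371 to 8074 higher, 3523 to 7664 lower), 24 to 34 called member genes (7 to 12 higher, 17 to 22 lower), 32 to 45 member probes (8 to 13 higher, 24 to 32 lower), 41 to 69 other pathway genes (24 to 36 higher, 17 to 33 lower) and a members' median of −0.53 to −0.47. Without replicate 3 the lower probes were 3523 and without replicate 2 3625. With no replicate block, the channels taken as unpaired, 10246 probes and 27 member genes were called (8 higher, 19 lower), and Txnrd1, 1 Slc7a11 probe and Maff were the named probes that lost their call. Matching by a gene name column was not run, since the scanner files used here hold none.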
